A study of Mus musculus with 49 samples.

Results

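The small proline-rich proteins are described here through 10 mouse genes, Sprr1a, Sprr1b, Sprr2b, Sprr2d, Sprr2e, Sprr2f, Sprr2g, Sprr2h, Sprr2i and Sprr2k. They were taken by symbol and Entrez gene ID, without regard to their values, from the 16 Sprr genes among the 24475 genes counted in skin and colon. In skin all 10 had enough counts to be tested, and in colon 4 had, namely Sprr1a, Sprr2b, Sprr2h and Sprr2k. Imiquimod-inflamed skin held more transcript of all 10 than water control skin, and both antibodies lowered 9 of them. In colon inflamed with dextran sulfate sodium, Sprr1a rose from a low level while Sprr2b and Sprr2k did not pass the test; Sprr2h, with 3 counts in all water libraries, was higher under DSS by its counts, which are given as a description.

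Small proline-rich proteins are short, repeat-rich proteins of keratinocytes that transglutaminases crosslink into the cornified envelope, the tough shell that forms under the membrane of dying surface cells. The genes lie beside those for loricrin, involucrin, filaggrin and the late cornified envelope proteins in the epidermal differentiation complex, and they are known to be switched on when a stratified epithelium is wounded, irradiated or inflamed. In the gut, where no cornified envelope forms, Sprr2a is known as an epithelial gene that responds to bacteria. Sprr1a is also known from outgrowing axons of injured nerves.

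All libraries, controls included, came from mice that the labels call a model of DITRA, the deficiency of the interleukin-36 receptor antagonist, on a background of 75% C57BL/6NTac and 25% 129S6/SvEvTac; the labels give no further allele, age or sex. Messenger RNA of whole tissue was selected and sequenced as strand-specific libraries. Of the skin libraries, most had imiquimod (IMQ), which activates Toll-like receptors: 6 with PBS, 7 with antibody against human IL36R (here anti-IL-36R, the receptor of interleukin-36) and 7 with antibody against mouse IL12p40 (here anti-IL-12p40, a chain found in both interleukin-12 and interleukin-23). The other 3 were water controls given PBS. Colon was injured with dextran sulfate sodium (DSS) in 6 libraries with PBS, 8 with anti-IL-36R and 7 with anti-IL-12p40, beside 5 water controls with PBS. The first antibody is directed at the human receptor, and the labels do not say which receptor these mice carry. Each library bears a number of its own, but nothing states that the libraries are separate animals, so p-values measure the spread between libraries only.

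Library totals were 14723200 to 19678074 expected counts in skin and 15081670 to 18663357 in colon, and levels are given as CPM, counts scaled to a common library total. The labelled tissues were checked against markers: keratinocyte genes summed to 31393 to 71081 CPM over 12 genes in skin libraries, and colon epithelial genes to 3833 to 57977 CPM over 10 genes in colon libraries. A colon library stood apart: DSS PBS replicate 6 held 3132 CPM of the 12 keratinocyte markers, against at most 38.6 CPM in any other colon library, and the lowest epithelial sum, 3833 CPM. Water control replicate 4 of colon had the highest epithelial sum, 57977 CPM. Values without these libraries are given beside the colon results whose call or size they change.

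The 10 genes lie together on chromosome 3 between 92316705 and 92485881 (GRCm38.p6), a stretch of 169177 bases that holds 14 genes of the RefSeq table. From Sprr2b at 92316705 to 92318085, through Sprr2d, Sprr2e, Sprr2f, Sprr2g, Sprr2h and Sprr2i, to Sprr2k at 92432582 to 92433927, the Sprr2 genes run on the plus strand. Sprr1b, at 92436808 to 92438817, and Sprr1a, at 92483954 to 92485881, lie on the minus strand. RefSeq lists Sprr2g as a transcribed pseudogene and the other 9 as protein-coding.

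The genes moved together in skin, so the 250 bases upstream of their start sites are shown for 4 of them: Sprr1a for the Sprr1 pair, Sprr2h and Sprr2k because both were also counted in colon, and Sprr2i because it had the largest fold change with imiquimod. The sequences are from RefSeq (GRCm38.p6), written 5′ to 3′ on the strand of the gene and ending at the base before the start site: Sprr1a at chr3:92485882-92486131 (minus), Sprr2h at chr3:92385435-92385684 (plus), Sprr2i at chr3:92407741-92407990 (plus) and Sprr2k at chr3:92432332-92432581 (plus). Capitals mark matches on either strand to TGANTCA, the letters bound by AP-1, to GGAAGT, a core of Ets family sites, and to TATAAA, the TATA box.
Sprr1a: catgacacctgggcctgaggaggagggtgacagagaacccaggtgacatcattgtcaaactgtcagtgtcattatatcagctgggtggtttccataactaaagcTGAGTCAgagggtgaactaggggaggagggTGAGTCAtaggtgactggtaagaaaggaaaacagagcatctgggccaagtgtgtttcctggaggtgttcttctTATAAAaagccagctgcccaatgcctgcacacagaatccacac
Sprr2h: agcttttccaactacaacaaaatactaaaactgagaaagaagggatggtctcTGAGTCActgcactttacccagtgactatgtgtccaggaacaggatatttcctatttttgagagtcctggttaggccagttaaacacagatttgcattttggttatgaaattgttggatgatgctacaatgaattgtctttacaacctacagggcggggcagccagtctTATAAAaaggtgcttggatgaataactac
Sprr2i: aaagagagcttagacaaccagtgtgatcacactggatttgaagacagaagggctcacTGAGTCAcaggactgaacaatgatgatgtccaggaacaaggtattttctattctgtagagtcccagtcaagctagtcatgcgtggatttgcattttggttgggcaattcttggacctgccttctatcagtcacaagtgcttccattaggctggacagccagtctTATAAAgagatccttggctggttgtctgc
Sprr2k: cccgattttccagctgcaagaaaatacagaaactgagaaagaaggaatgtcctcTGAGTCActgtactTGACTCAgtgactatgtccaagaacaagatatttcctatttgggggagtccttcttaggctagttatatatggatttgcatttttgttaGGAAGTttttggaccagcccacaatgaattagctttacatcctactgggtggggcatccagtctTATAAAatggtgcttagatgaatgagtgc

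RefSeq held an upstream sequence for 9 of the 10 genes, all but Sprr2g. TGANTCA occurred in 9 of those 9 and in 6.75% of 32851 mouse promoters of the same length, and TATAAA occurred in 9 of 9 and in 12.4%. The positions were nearly fixed in the Sprr2 genes, where TATAAA began 29 bases before the start site in all 7 sequences and TGANTCA began 193 to 198 bases before it. Sprr2k held another TGANTCA at base -182. Sprr1a held it at -146 and -116 and Sprr1b at -111, so the Sprr1 pair did not share the Sprr2 spacing. GGAAGT occurred in Sprr2b and Sprr2k (19.7% of all promoters). The other motifs searched on both strands were CACCC of the Klf factors, in 4 of 9 (52% of all promoters), the NF-kB motif (a run of G, a spacer of any bases and a pair of C), in 5 of 9 (45.8%), TTGCNNAA of the C/EBP factors, in Sprr2i (9.56%), and TTCNNNGAA of the STAT factors, in 0 of 9 (7.02%). A match is a run of letters and was not tested as a binding site. Of 231 windows of 20 bases, Sprr2d and Sprr2e shared 46, the highest number of any pair, and the Sprr1 sequences shared 0 with any other.

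**Figure D1:**
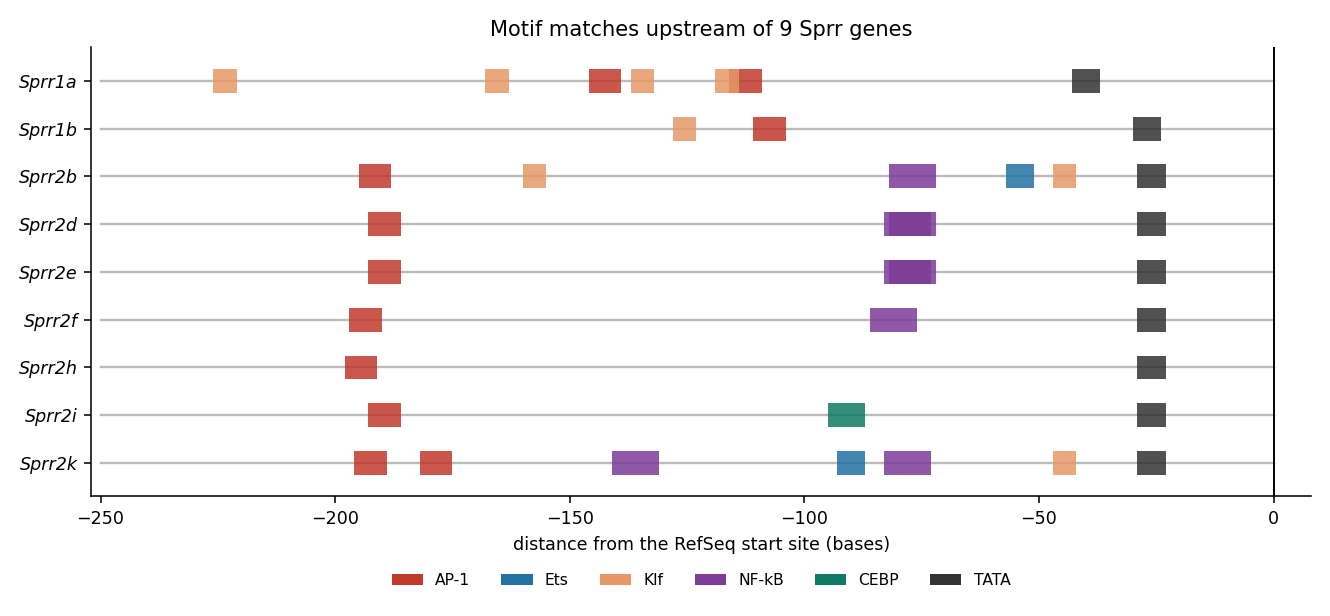
Positions of motif matches in the 250 bases upstream of 9 Sprr genes; the horizontal axis is the distance in bases from the RefSeq start site and colours mark the motif. The TATAAA match begins 29 bases and the TGANTCA match (AP-1) 193 to 198 bases before the start in all 7 Sprr2 genes. TGANTCA lies elsewhere in Sprr1a and Sprr1b, while TATAAA begins at -43 in Sprr1a and at -30 in Sprr1b.

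Some of these counts hold reads divided between genes. In skin the value of each of the 10 genes was not a whole number (to within 0.001) in 23 of 23 libraries, as happens where RSEM divides reads between genes. Over all genes 16.5% of the values in skin and 17.1% in colon were not whole. In colon Sprr1a was whole in all 26 libraries, whereas Sprr2b was not whole in 25 of 26, Sprr2k in 26 of 26 and Sprr2h in 14 of 26. By sequence, 101 of 735 windows of 50 bases (13.7%) in the longest Sprr2b transcript also occurred in Sprr2a. Of the windows of Sprr2i 12.5%, and of those of Sprr2e 10.2%, occurred in another Sprr transcript. Sprr1a, Sprr1b, Sprr2g, Sprr2h and Sprr2k shared 0 windows of that length with any other Sprr transcript. Why their skin values were still not whole was not tested.

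The first question was how imiquimod inflammation changed these genes in skin, with PBS libraries set against water controls. All 10 rose, by log2 fold changes of 1.81 to 4.05 (median 2.89, against -0.026 over all 15345 tested genes), where 15.5% of all tested genes rose. For all 10 the 6 IMQ libraries lay above the 3 water libraries, a separation found for 13.2% of all tested genes. In whole tissue, a rise of a transcript per cell and a larger share of the cells that make it cannot be told apart. Together the 10 genes took 0.164% of all counts in water controls and 0.787% under IMQ.

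The Sprr1 pair was abundant before treatment. Sprr1a, the envelope precursor also known from injured nerve, stood at 422, 633 and 424 CPM in the 3 water libraries and at 1189, 1765 and 2064 CPM (lowest, median and highest) under IMQ. The groups were well apart, and Sprr1a rose by a log2 fold change of 1.81 ± 0.304 (adjusted p = 0.00041). Sprr1b, its closest relative, stood at 546, 858 and 266 CPM in water and at 1777, 2240 and 2914 CPM under IMQ. The third water library was the low one, and the rise was 2.01 ± 0.396 (adjusted p = 0.0011).

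Among the 8 Sprr2 genes of the 10, precursors of the same envelope, every rise was larger than those of the Sprr1 pair. Their log2 fold changes were 2.10 to 4.05. Sprr2a1, Sprr2a2 and Sprr2a3, given below, changed less than the Sprr1 pair and did not pass. The difference between the subfamilies was not tested. Sprr2d, the most abundant of the 8, stood at 321, 306 and 99.4 CPM in water and at 1184, 1287 and 2120 CPM under IMQ (log2 fold change 2.56 ± 0.436, adjusted p = 0.000426). Sprr2h went from 162, 228 and 83.8 CPM to 578, 642 and 942 CPM (2.10 ± 0.382, adjusted p = 0.000638). In both genes replicate 1 of the IMQ group was the highest and water replicate 3 the lowest. Sprr2i, whose water levels were 28.4, 36.4 and 5.80 CPM, reached 324, 383 and 478 CPM, the largest log2 fold change of the family (4.05 ± 0.869, adjusted p = 0.0019). Sprr2k was the rarest, at 2.78, 2.91 and 0.338 CPM in water and 17.7, 21.7 and 34.7 CPM under IMQ (3.6 ± 0.908, adjusted p = 0.0055). Even so its groups did not touch.

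The remaining Sprr2 genes had middling levels. Sprr2b went from 90.1, 48.3 and 14.4 CPM to 244, 348 and 816 CPM (3.04 ± 0.541, adjusted p = 0.000577). Sprr2e went from 66.7, 55.6 and 14.4 CPM to 360, 386 and 642 CPM (3.23 ± 0.539, adjusted p = 0.000383). In both the top value was that of IMQ replicate 1, well above the next library. Sprr2f went from 38.2, 24.7 and 5.92 CPM to 212, 246 and 329 CPM (3.46 ± 0.757, adjusted p = 0.0022). Sprr2g, listed as a pseudogene, went from 55.7, 58.8 and 13.4 CPM to 257, 268 and 385 CPM (2.75 ± 0.524, adjusted p = 0.000895), a range like that of its coding neighbours. The 10 calls held in all 9 fits that each left out 1 library.

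**Figure D2:**
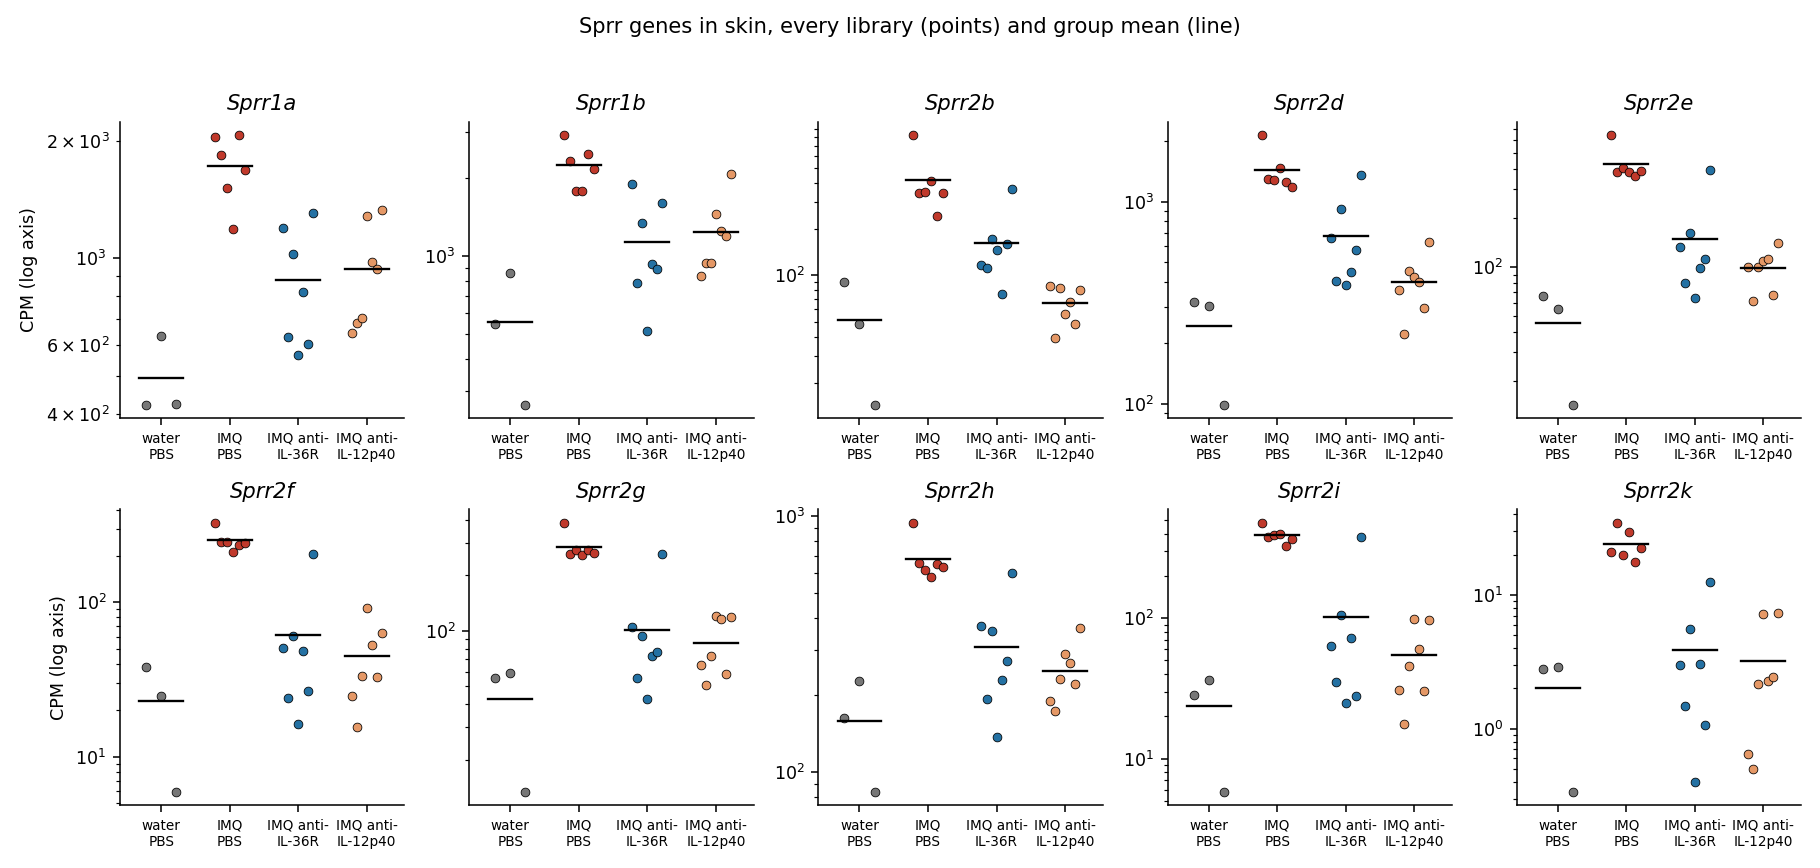
CPM of each Sprr gene in skin on a log axis, with a point for every library and a line at the group mean. In every panel the 6 IMQ PBS libraries lie above the 3 water libraries, and the antibody groups reach down towards or into the range of water.

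Of the other Sprr genes in skin, Sprr4 went the opposite way, with 69.3 ± 39.3 CPM (SD, n = 3) in water and 10.7 ± 4.82 CPM (SD, n = 6) under IMQ, a log2 fold change of -2.70 ± 0.423 (adjusted p = 0.000238). Sprr3, a gene known from oral and oesophageal epithelium, had 8 counts over the water libraries, at most 0.327 CPM. It passed the filter on low counts through groups under IMQ, so its level is a description. The IMQ PBS libraries, at 0.21 to 2.68 CPM, overlapped those of water. The pseudogene Sprr2j-ps rose by 3.77 ± 0.881 (adjusted p = 0.0033). Sprr2a1 and Sprr2a2 had identical values in all 23 skin libraries and cannot be told apart; each stood at 746 ± 280 CPM (SD, n = 3) in water and 1626 ± 449 CPM (SD, n = 6) under IMQ, and did not pass (1.12 ± 0.437, adjusted p = 0.052). The change of Sprr2a3 was 1.62 ± 0.642 (adjusted p = 0.0563). Summed over all 12 Sprr2 genes of the table, the rise was 1.79 ± 0.424 (adjusted p = 0.0036). That sum changed by -0.98 ± 0.306 with anti-IL-12p40 against PBS (adjusted p = 0.0479) and by -0.84 ± 0.305 with anti-IL-36R, which did not pass (adjusted p = 0.116).

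Levels of different genes were compared per kilobase of the longest annotated transcript. Under IMQ Sprr1b led at 2694 ± 522 CPM per kilobase (SD, n = 6), followed by Sprr1a at 2139 ± 418 and Sprr2d at 2102 ± 512 CPM per kilobase. Sprr1a and Sprr2d did not differ beyond their spread. Sprr2h followed at 903 ± 175 CPM per kilobase, and Sprr2e, Sprr2i, Sprr2b, Sprr2g and Sprr2f then fell off from 661 to 415 CPM per kilobase with no neighbours apart beyond their SD. Sprr2k was last at 38.0 ± 10.3 CPM per kilobase. Sprr2i made up 1.61% of the summed level per length of the 10 genes in water and 6.04% under IMQ.

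Across the 23 skin libraries the genes moved together. The correlation, taken on log2 of CPM plus 1, was 0.951 between Sprr1a and Sprr1b. Its median was 0.956 over the 28 pairs of Sprr2 genes and 0.878 over the 16 pairs of a Sprr1 and a Sprr2 gene. After group means were removed the medians were 0.884 within Sprr2 and 0.759 between the subfamilies, with the lowest value, 0.199, between Sprr1a and Sprr2b. The libraries share tissue and depth, and Sprr genes share reads, so these values are a description. The 5 genes most like the mean of the 10, out of 13084 ranked by Pearson correlation over the 23 libraries, were Gjb6 (0.983), a connexin of gap junctions, Csta3 (0.969), of the stefin A family of cysteine protease inhibitors, the beta-defensin Defb14 (0.967), and the late envelope genes Lce3a (0.966) and Lce3b (0.964).

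Whether blocking the interleukin-36 receptor changed the genes in inflamed skin was asked by setting the anti-IL-36R libraries against those given PBS. It lowered 9 of the 10, all but Sprr1b, with a median log2 fold change over the 10 of -1.43 against 0.00048 over all tested genes. Among all tested genes 0.886% fell. The libraries of both groups lay apart for 2 of the 10, Sprr2f and Sprr2k, against 0.345% of all tested genes.

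Sprr1a stood at 566, 819 and 1304 CPM (lowest, median, highest) with anti-IL-36R, overlapping PBS at its upper end, and fell by 0.97 ± 0.219 on the log2 scale (adjusted p = 0.0144). Sprr1b had 511, 925 and 1898 CPM and a log2 fold change of -0.98 ± 0.282, which just missed the threshold (adjusted p = 0.0508). The Sprr1 pair thus had nearly equal fold changes on opposite sides of the threshold. Of the Sprr2 genes, Sprr2k changed most, with 0.399, 3.01 and 12.5 CPM (-2.63 ± 0.6, adjusted p = 0.0155). Sprr2f had 16.3, 48.3 and 206 CPM (-2.03 ± 0.501, adjusted p = 0.0236). In both genes the highest antibody library, replicate 7, stayed below the lowest PBS library.

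Sprr2i had 24.8, 63.5 and 380 CPM with anti-IL-36R, a fall of 1.94 ± 0.554 on the log2 scale at an adjusted p of 0.05 that is just under the threshold. Sprr2e (64.7, 111 and 393 CPM) and Sprr2g (42.7, 77.0 and 260 CPM) fell by 1.52 ± 0.358 and 1.5 ± 0.358. In these 3 genes replicate 7 alone reached the range of PBS. Sprr2b (75.5, 146 and 364 CPM), Sprr2h (137, 271 and 598 CPM) and Sprr2d (388, 579 and 1354 CPM) fell by 1.35 ± 0.363, 1.14 ± 0.271 and 1.08 ± 0.3, with adjusted p of 0.038, 0.0195 and 0.0454. Sprr4 rose by 1.95 ± 0.365 (adjusted p = 0.005), opposite to the 10 as it was under IMQ.

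These calls depended on few libraries. Replicate 7 of the anti-IL-36R group was the highest of its group for 9 of the 10 genes, and its summed leukocyte markers, 5477 CPM over 7 genes, were the highest of that group (1865 to 5477 CPM). Without it all 10 genes fell, with Sprr2i at -2.82 ± 0.452. Leaving out 1 of the PBS libraries lost Sprr2d and Sprr2i in each of 6 cases and Sprr2b in 5, all but that without replicate 5. Leaving out other antibody libraries left 3 calls (without replicate 2), 4 (replicate 6) or 5 (replicates 4 and 5 in turn). The IMQ PBS libraries fall into a run of sample numbers shared with the water controls (replicates 1 to 3) and another shared with anti-IL-36R (replicates 4 to 6); against either run alone 0 genes passed by edgeR, with log2 fold changes of -1.05 to -2.70 against the first run and of -0.90 to -2.57 against the other.

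The anti-IL-12p40 libraries were set against the same PBS group. It too lowered 9 of the 10, again all but Sprr1b, with a median log2 fold change of -1.98 against 0.014 over all tested genes, of which 3.46% fell. All 8 Sprr2 genes among the 10 had antibody libraries that lay wholly below the PBS libraries, against 1.98% of all tested genes. This comparison and that for anti-IL-36R share the 6 PBS libraries, so they are not independent.

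Sprr2b had 39.3, 66.9 and 85.8 CPM with anti-IL-12p40, within the range of its water libraries, a log2 fold change of -2.67 ± 0.377 (adjusted p = 0.000665). Sprr2k (0.500, 2.26 and 7.28 CPM) and Sprr2i (17.7, 45.8 and 98 CPM) fell by 2.95 ± 0.614 and 2.84 ± 0.572, with adjusted p of 0.006 and 0.0053. These 3 genes changed most. The lowest antibody library reached into the range of water in every Sprr2 gene of the 10 and in Sprr1b, but not in Sprr1a. Sprr2f (15.7, 33.3 and 91.5 CPM), Sprr2e (61.9, 101 and 140.4 CPM) and Sprr2d (222, 399 and 633 CPM) fell by 2.50 ± 0.509, 2.11 ± 0.364 and 1.84 ± 0.305. Sprr2g (51.1, 72.9 and 119.6 CPM) and Sprr2h (173, 232 and 366 CPM) fell by 1.73 ± 0.36 and 1.45 ± 0.272. The adjusted p of these 5 lay between 0.0019 and 0.006. The Sprr1 pair changed least of the 10: Sprr1a, at 643, 939.5 and 1331 CPM, fell by 0.88 ± 0.219 (adjusted p = 0.0161), and Sprr1b, at 834, 1188 and 2062 CPM, had -0.85 ± 0.282 (adjusted p = 0.0608). Against PBS replicates 4 to 6 alone 3 of the 10 passed. Sprr4 rose by 1.74 ± 0.364 (adjusted p = 0.0061).

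**Figure D3:**
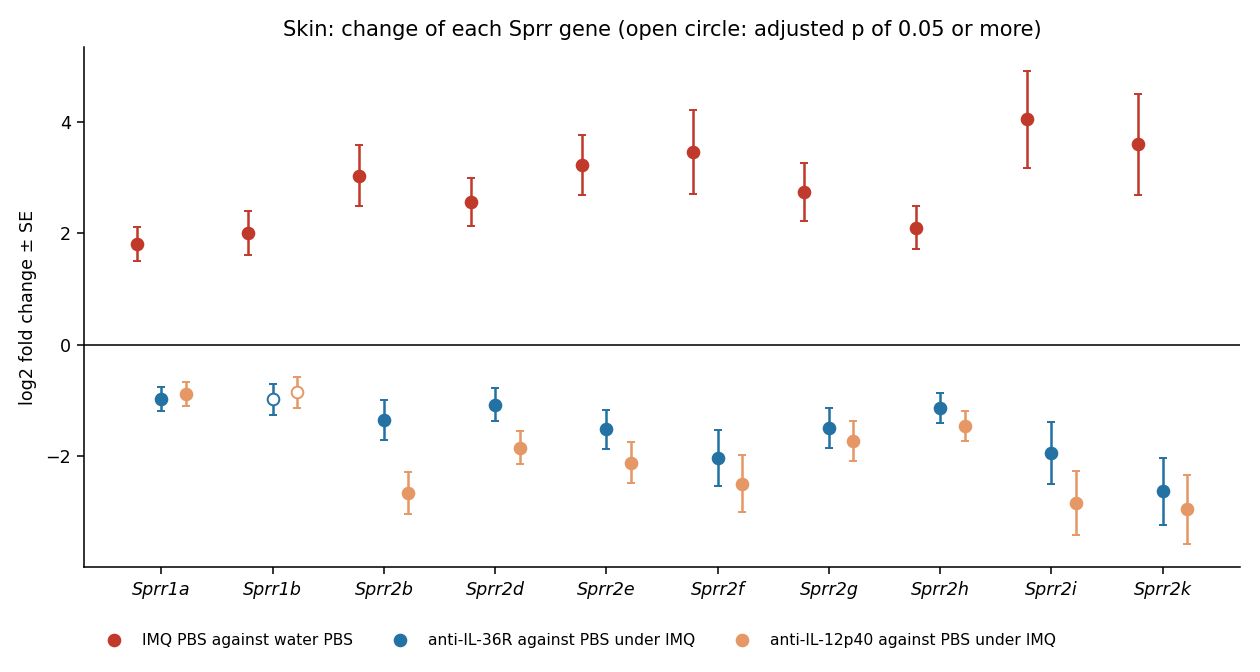
Log2 fold change of each Sprr gene in 3 skin comparisons, with bars of 1 SE; open circles did not pass the test. All 10 IMQ values are positive (1.81 to 4.05) and all antibody values negative, with Sprr1b open in both antibody comparisons.

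Between the antibodies 0 of the 10 passed by edgeR, where 0.0456% of all tested genes did in either direction, and 2 had an unadjusted p under 0.05, Sprr2b and Sprr2d. DESeq2 and limma-voom also called 0. The largest difference was that of Sprr2b, 1.32 higher with anti-IL-36R on the log2 scale (95% interval 0.62 to 2.01, adjusted p = 0.468). For Sprr1a the interval of the difference was -0.51 to 0.32.

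Set against water controls, skin under IMQ with anti-IL-36R still had higher Sprr2b (1.69 ± 0.495, adjusted p = 0.0286), Sprr2d (1.49 ± 0.403, adjusted p = 0.0193) and Sprr2e (1.71 ± 0.488, adjusted p = 0.0248), 3 of the 10 where 5.93% of all tested genes rose. DESeq2 called 8 and limma-voom 1, and without water replicate 3, the low library for 9 of the 10, the count was 0; it was 5 without water replicate 2 and 8 without antibody replicate 4, and without antibody replicate 7 Sprr2b did not pass. Sprr2d alone had groups that did not overlap, against 6.1% of all tested genes. With anti-IL-12p40 0 of the 10 passed against water by edgeR (2.4% of all tested genes rose), 4 had an unadjusted p under 0.05, DESeq2 called 2 and limma-voom 0. The median over the 10 was still 0.95 on the log2 scale. Whether the antibodies differed in how far they returned the genes to water is the comparison between antibodies above, in which 0 passed.

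Markers of other cells moved with these groups. The sum of 7 leukocyte markers was 376 to 1235 CPM in water, 3199 to 5650 CPM under IMQ, 1865 to 5477 CPM with anti-IL-36R and 774 to 2390 CPM with anti-IL-12p40. The sum of 3 fibroblast collagens was 12295 to 21526 CPM in water and 3538 to 8865 CPM under IMQ, and 5 hair follicle keratins went from 4.90 to 300.5 CPM in water to 1.22 to 20.2 CPM under IMQ. The 12 keratinocyte markers overlapped between water (40173 to 68228 CPM) and IMQ (35316 to 71081 CPM). The highest IMQ value was that of PBS replicate 1, and the other IMQ PBS libraries had 35316 to 41935 CPM. That library was also the highest of its group for 8 of the 10 Sprr genes. In water replicate 2 had 68228 CPM and the others 40173 and 43341 CPM. The part of these cell markers in the changes of the Sprr genes was not tested.

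Of 21 further envelope precursors tested in skin, 7 rose and 9 fell under IMQ, where 15.5% of all tested genes rose and 17.4% fell. Flg2, a filaggrin-like protein, had the largest change (-4.65 ± 0.572), and Lce1m of the late envelope genes fell too (-3.01 ± 0.43), while Lce3b (2.86 ± 0.562) and Lce3a (2.48 ± 0.476) rose. With anti-IL-36R 2 of the 21 rose and 6 fell (3.21% and 0.886% of all tested genes), and with anti-IL-12p40 6 rose and 7 fell (5.26% and 3.46%). These shares of all tested genes are the background for the counts of the other lists in skin too. Flg2 rose with both antibodies (3.08 ± 0.493 and 3.68 ± 0.507), and Lce3b fell with both (-1.75 ± 0.384 and -1.79 ± 0.384). Of 8 crosslinking enzymes and envelope scaffold genes 5 rose under IMQ, among them the transglutaminases Tgm3 (1.25 ± 0.351), Tgm1 (1.10 ± 0.277) and Tgm5 (0.58 ± 0.195) and the protease inhibitor Csta1 (1.73 ± 0.335). With anti-IL-36R 0 of these 8 passed by edgeR, 3 with an unadjusted p under 0.05, and with anti-IL-12p40 2 fell, Csta1 (-1.13 ± 0.242) and Tgm1 (-0.80 ± 0.207).

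All 4 stress keratins rose under IMQ, from Krt17 (1.16 ± 0.203) to Krt6a (2.43 ± 0.509), and 0 passed by edgeR with either antibody, with 2 and 1 at an unadjusted p under 0.05. Of 25 regulators of epithelial genes 12 rose and 1 fell under IMQ. The AP-1 genes Fos (2.53 ± 0.762), Fosl1 (1.56 ± 0.527) and Junb (1.38 ± 0.292) and the Ets factor Elf3 (1.41 ± 0.411) were among those that rose. With anti-IL-36R 1 of the 25 rose, and with anti-IL-12p40 1 rose and 3 fell, Elf3 among them (-1.24 ± 0.303). Of 9 upstream cytokine genes tested 4 rose under IMQ, with Il1b at 3.94 ± 0.785. With anti-IL-36R 0 passed by edgeR (1 at an unadjusted p under 0.05), and with anti-IL-12p40 4 fell, including Il17f (-3.25 ± 0.456). Levels of a regulator's transcript say nothing of its activity, and no link to the Sprr genes was tested.

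In colon the 10 genes were a minor set of transcripts. All 12 Sprr2 genes of the table, Sprr2a included, summed to 5134 ± 1244 CPM (SD, n = 5) in water controls. The 10 genes together took 0.00051% of counts in water controls and 0.00404% in DSS PBS libraries, or 0.00149% without DSS PBS replicate 6. The PBS libraries under DSS were set against water to see which of them colitis changed. Of the 4 in the fit, Sprr1a rose, where 17.6% of all tested genes did. Sprr2h entered the fit through its DSS libraries, so its call and its groups, which did not overlap (8.02% of all tested genes), are a description.

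Sprr1a stood at 1.11, 1.01, 1.12, 7.28 and 1.31 CPM in the 5 water libraries, and at 4.36, 7.61 and 15.1 CPM (lowest, median, highest) in the 6 DSS PBS libraries. Water replicate 4, the library with the high epithelial marker sum, reached into the DSS range while the other 4 lay well below it. The log2 fold change was 1.97 ± 0.465 (adjusted p = 0.0024), and 2.99 ± 0.385 without water replicate 4. Its values were whole in every colon library.

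Sprr2h had 2, 1, 0, 0 and 0 counts in water, 3 in all, and 22, 124, 52, 4, 37.8 and 221 counts in DSS PBS replicates 1 to 6. In CPM the DSS libraries ran from 0.239 to 12.5 with a median of 2.69. Sprr2h passed the filter on low counts through the DSS groups, where it is high, so that it had to differ from water. The ratio of pooled levels was 127 with a 95% interval of 43.1 to 618 that covers counting error only, and 80.1 (27.1 to 391) without DSS PBS replicate 6.

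Sprr2b did not pass, at 3.52, 2.20, 2.30, 1.77 and 1.5 CPM in water and 0.795, 1.57 and 2.52 CPM under DSS (log2 fold change -0.49 ± 0.243, adjusted p = 0.123), though it passed as lower without DSS PBS replicate 3. Sprr2k did not either, at 0.679, 0.225, 0.481, 0.495 and 0.312 CPM in water and 0.114, 0.703 and 1.38 CPM under DSS (0.61 ± 0.394, adjusted p = 0.244). Both stood far below Sprr2a in the same libraries: Sprr2a1 stood at 2365 ± 585 CPM (SD, n = 5) in water. For each 1000 counts of the 3 Sprr2a genes, Sprr2b had 0.319 to 0.639 counts across all 26 colon libraries, against 9.0 to 146 in the 23 skin libraries. Sprr2k had 0.0396 to 0.243 in colon and 0.218 to 12.4 in skin. The colon value of Sprr2b therefore tracked that of Sprr2a within a narrow range, and how much of it is reads divided with Sprr2a was not tested.

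**Figure D4:**
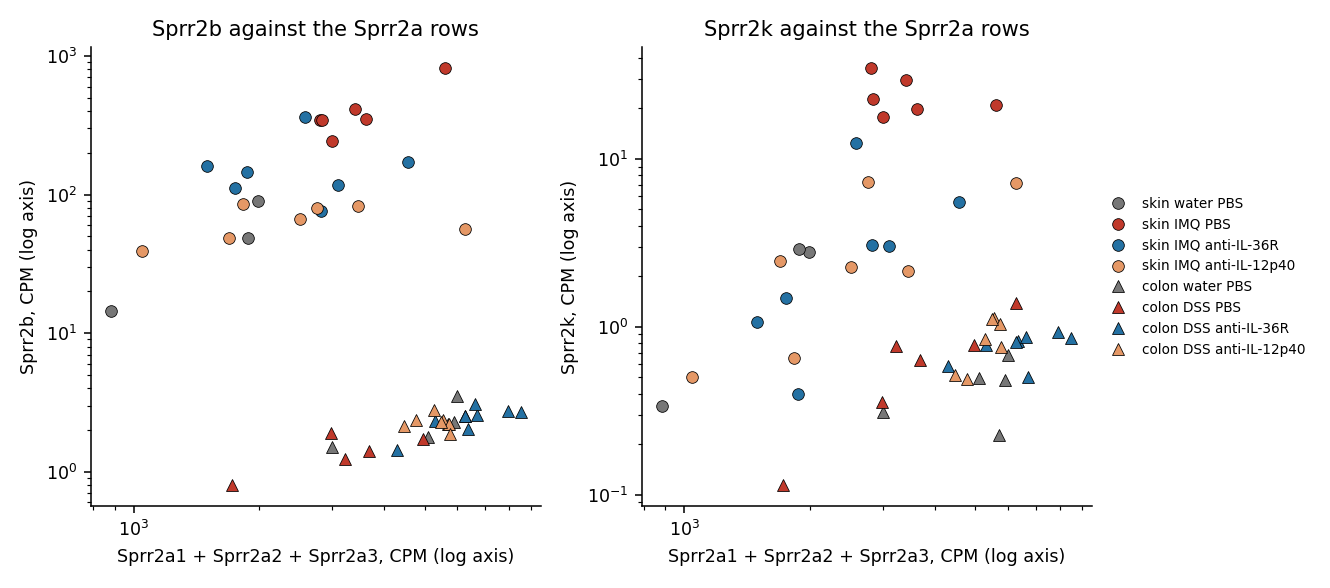
CPM of Sprr2b (left) and Sprr2k (right) against the summed CPM of the 3 Sprr2a genes in every skin (circles) and colon (triangles) library, both axes log. In colon Sprr2b stays at 0.319 to 0.639 counts per 1000 Sprr2a counts, while in skin it ranges from 9.0 to 146.

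The other 6 genes had too few colon counts to be tested and 0 counts in all 5 water libraries. Sprr2d had 4, 20.5, 3, 0, 18.9 and 2385 expected counts in DSS PBS replicates 1 to 6. Nearly all of it thus came from replicate 6, the library with keratinocyte markers. Against a floor of 3 counts over the water group it was at least 669-fold higher, and at least 15.4-fold higher without replicate 6. Sprr2f had 55 rounded counts in the DSS PBS group, Sprr2g 46, Sprr2e 36, Sprr2i 12 and Sprr1b 7, and without replicate 6 these became 28, 16, 13, 8 and 1. Each of the 6 had at most 7 counts in all libraries of either antibody group. Sprr3 was counted in DSS PBS replicate 6 only, with 29 counts. What part keratinocytes in that library have in the Sprr counts was not tested.

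**Figure D5:**
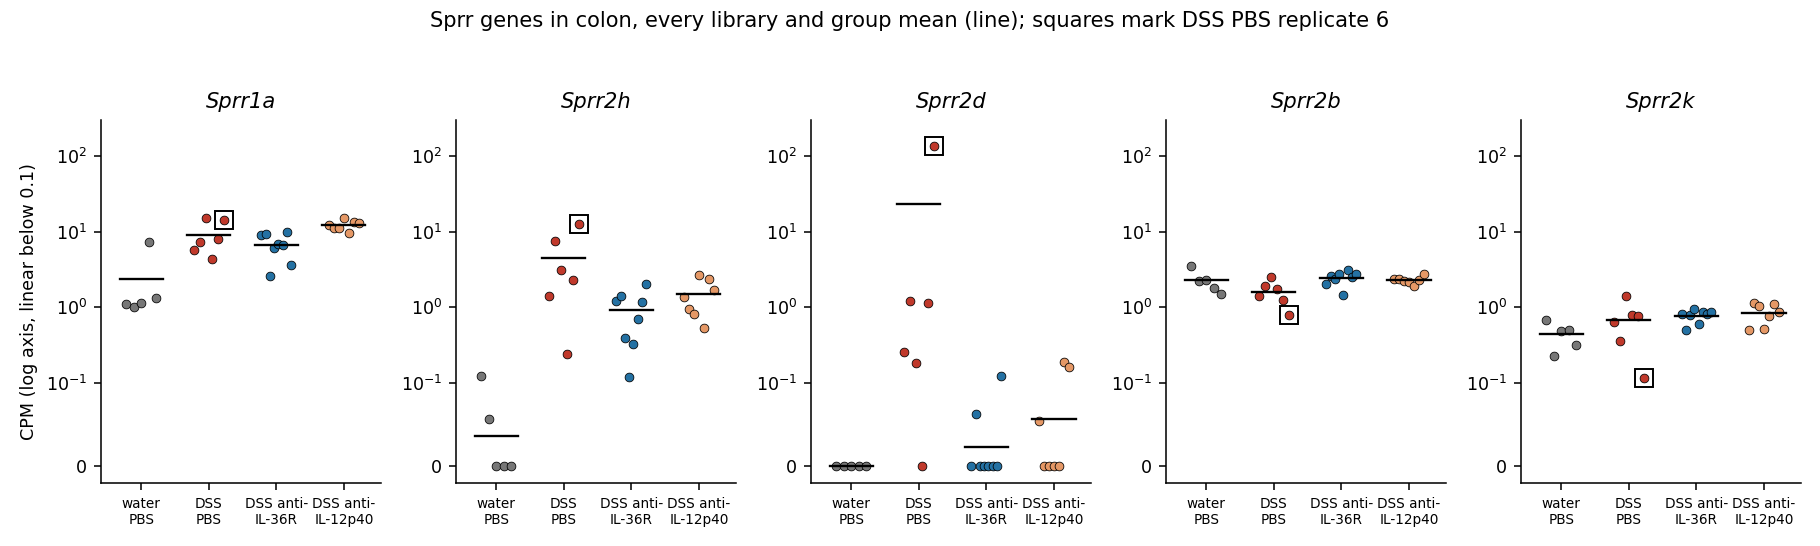
CPM of 5 Sprr genes in colon, with a point for every library and a line at the group mean, on an axis that is linear below 0.1 CPM and log above; squares mark DSS PBS replicate 6. Sprr2d is at most 1.19 CPM in every library but that one (135 CPM), while Sprr1a and Sprr2h are raised across the DSS groups.

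In colitis, anti-IL-36R libraries were set against PBS libraries. Of the 4 tested genes Sprr2h fell (5.38% of all tested genes fell), from 0.239, 2.69 and 12.5 CPM in DSS PBS libraries to 0.117, 0.934 and 2.04 CPM. The groups overlapped, and the log2 fold change of -2.29 ± 0.6 (adjusted p = 0.0204) became -1.67 ± 0.573 (adjusted p = 0.137) without DSS PBS replicate 6. Without DSS PBS replicates 2, 5 and 6, the libraries highest in leukocyte or keratinocyte markers, it was -0.80 ± 0.642 (adjusted p = 0.85). Sprr1a stood at 2.56, 6.68 and 9.89 CPM with the antibody (-0.44 ± 0.381, adjusted p = 0.51). Sprr2b at 2.54 CPM and Sprr2k at 0.816 CPM in the median did not pass (0.60 ± 0.22, adjusted p = 0.101, and 0.20 ± 0.335, adjusted p = 0.756). Sprr2a1 and Sprr2a2, identical again in all 26 libraries, rose by 0.82 ± 0.211 (adjusted p = 0.0187), with 2944 ± 594 CPM (SD, n = 8) against 1667 ± 671 CPM in PBS libraries (SD, n = 6).

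Anti-IL-12p40 against PBS under DSS moved 0 of the 4 past the threshold by edgeR (0.998% of all tested genes passed in either direction), with 2 at an unadjusted p under 0.05; DESeq2 and limma-voom also called 0. Sprr2h had 0.528, 1.37 and 2.64 CPM (-1.60 ± 0.607, adjusted p = 0.252). Sprr1a had 9.45, 12.2 and 15.2 CPM, at the upper end of the PBS libraries (0.42 ± 0.393, adjusted p = 0.709). Between the antibodies 0 of the 4 passed in colon (0% of all tested genes) by edgeR, DESeq2 or limma-voom, with 1 at an unadjusted p under 0.05, Sprr1a, which was 0.86 lower on the log2 scale with anti-IL-36R (95% interval -1.58 to -0.15, adjusted p = 0.9997).

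Against water controls Sprr1a was higher with either antibody, and Sprr2h is again described by its counts alone. With anti-IL-36R Sprr1a rose by 1.53 ± 0.444 (adjusted p = 0.0301), where 6.87% of all tested genes rose, and by 2.55 ± 0.37 without water replicate 4. The pooled ratio of Sprr2h was 24.9 (8.33 to 123, counting error only). The Sprr1a call was lost without water replicate 1, 2, 3 or 5 or without antibody replicate 7. With anti-IL-12p40 Sprr1a rose by 2.39 ± 0.462 (adjusted p = 0.000815), where 10.8% of all tested genes rose, and by 3.42 ± 0.386 without water replicate 4. The pooled ratio of Sprr2h was 40.8 (13.8 to 200). With that antibody the libraries of Sprr1a, and of Sprr2h, lay wholly above those of water (7.53% of all tested genes).

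The sum of 7 leukocyte markers moved with the colon groups too, at 59.5 to 117.2 CPM in water, 416 to 1737 CPM in DSS PBS, 151 to 412 CPM with anti-IL-36R and 265 to 559 CPM with anti-IL-12p40. The 10 colon epithelial markers overlapped between water (13042 to 57977 CPM) and DSS PBS (3833 to 21195 CPM). Their part in the Sprr changes was not tested. Over the 26 colon libraries, 13482 genes were ranked by Pearson correlation with the mean of the 4 tested ones. The lipid transporter Mfsd2a (0.906), the oxidase maturation factor Duoxa2 (0.891), the RNA-degrading enzyme Zc3h12a (0.889), Trim15 (0.886) and Clca4b (0.874) came first. After group means were removed, their values were 0.698, 0.563, 0.631, 0.718 and 0.608, in the same order.

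The related lists were counted in colon with all libraries and without DSS PBS replicate 6, the library with keratinocyte markers. Of all tested genes 17.6% rose and 14.6% fell under DSS, 5.38% fell with anti-IL-36R and 0.985% with anti-IL-12p40. Of 2 envelope precursors tested 1 rose under DSS, with or without that library. Of 8 crosslinking and scaffold genes 4 rose, led by Tgm1 from 1.11 to 29.4 CPM in the mean (4.71 ± 0.765), and 1 fell, Tgm3 (-1.92 ± 0.663). Without replicate 6, which held 123.5 CPM of Tgm1, its DSS PBS mean was 10.6 CPM and its rise 3.25 ± 0.476, and Tgm3 did not pass (adjusted p = 0.0561). With anti-IL-36R Tgm1 fell by 3.74 ± 0.593 on the log2 scale, and by 2.29 ± 0.384 without replicate 6. With anti-IL-12p40 it fell by 2.90 ± 0.597, but without replicate 6 the value was -1.44 ± 0.391 and did not pass (adjusted p = 0.166).

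The stress keratin counts rested on replicate 6. All 3 tested stress keratins rose with it, and 2 fell with anti-IL-36R and 1 with anti-IL-12p40; without it 1 had enough counts to be tested, Krt17, and its value under DSS was 0.16 ± 0.398 (adjusted p = 0.804). Of 25 regulators 10 rose and 2 fell under DSS, or 8 and 0 without replicate 6. Fosl1 rose by 2.49 ± 0.675 and Cebpb by 2.23 ± 0.468. With anti-IL-36R 3 of the 25 fell, Fosl1 (-2.21 ± 0.56) and Cebpb (-1.49 ± 0.386) among them, and without replicate 6 these 2 were left. With anti-IL-12p40 0 passed by edgeR, with 6 at an unadjusted p under 0.05. Of 8 upstream cytokine genes 7 rose, and 5 fell with anti-IL-36R and 2 with anti-IL-12p40; without replicate 6, 6 of 7 rose, and 3 and 1 fell. Of 10 genes of repairing colon epithelium 6 rose, among them Ly6d (3.52 ± 0.553), and 2 and 1 fell with the respective antibody; without replicate 6, 5 rose, with Ly6d at 2.96 ± 0.479, and 0 fell with either antibody by edgeR (2 and 1 at an unadjusted p under 0.05).

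Whether the changes differed between tissues was tested for the 4 genes counted in both, in a fit over all 49 libraries and 16818 genes; tissue and inflaming agent cannot be told apart in it. The IMQ change in skin exceeded the DSS change in colon by 3.58 ± 0.566 on the log2 scale for Sprr2b (adjusted p = 1.3e-05) and by 3.03 ± 0.994 for Sprr2k (adjusted p = 0.0234), and 8.95% of all tested genes differed in that direction. For Sprr2h the value was -4.54 ± 1.25 (13.4% of all tested genes differed in that direction), a description that rests on 3 counts in the water libraries of colon. For Sprr1a the difference was -0.13 ± 0.533 (adjusted p = 0.895), a value that turned on single libraries: it was -1.16 (adjusted p = 0.0722) without colon water replicate 4 and 0.089 without skin water replicate 2. The Sprr2k difference was 2.52 (adjusted p = 0.09) without skin water replicate 3, and it also failed to pass without colon water replicate 1. In each colon water library Sprr2k had 4 to 11 rounded counts. The colon values of Sprr2b tracked those of Sprr2a, and how much of them is reads divided with Sprr2a was not tested.

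The antibody changes differed as well. With anti-IL-36R the skin change minus the colon change was -1.98 ± 0.462 on the log2 scale for Sprr2b (adjusted p = 0.0079) and -2.87 ± 0.768 for Sprr2k (adjusted p = 0.021; 0.0594 without DSS PBS replicate 6), where 1.01% of all tested genes differed in that direction. With anti-IL-12p40 the differences were -3.20 ± 0.473 for Sprr2b (adjusted p = 0.000106) and -3.28 ± 0.78 for Sprr2k (adjusted p = 0.0165), where 0.386% of all tested genes did. Sprr1a was at -1.33 ± 0.444 (adjusted p = 0.118), and passed without colon water replicate 4 (adjusted p = 0.0387). The Sprr2h differences, 1.14 ± 0.615 and 0.13 ± 0.584, did not pass (adjusted p = 0.304 and 0.965). The limits on the low colon values of Sprr2b and Sprr2k hold for these differences too.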

How the data were processed

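Messenger RNA of skin (23 libraries) and colon (26) was sequenced. The authors estimated abundance with RSEM against mm10, per the submitters' processing notes, and deposited expected counts per gene and library; versions and annotation are not given in the sources used here. All columns were mapped to samples (0 left over). Counts were rounded, filtered (filterByExpr) and tested with edgeR 4.0.16 (TMM, robust quasi-likelihood F tests, R 4.3.3), the 4 groups of a tissue in 1 fit, with Benjamini-Hochberg adjustment over 15345 genes in skin and 15731 in colon. A gene rose or fell at an adjusted p under 0.05. SE came from each estimate and its F statistic, and CPM use TMM-adjusted totals. Sequences, coordinates and strands are from RefSeq and GENCODE tables of GRCm38.p6. Alternatives were DESeq2 1.42.0 size factors and Wald test, no filter, limma-voom (3.58.1), compared groups alone, runs of PBS libraries, and leave-one-out; 6 more were added after seeing the data. Methods were tested on simulated data. All 10 genes and, from each list of related genes, at most 4 with the largest change under IMQ or DSS and a mean of 1 or more in log2 CPM are named. The members and lists were chosen with earlier results of these data known.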

Additional observations from a re-analysis of the deposited data

Results flagged for a closer look

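For 46 sets of libraries of 1 gene and 1 group, the highest and the lowest library were compared with the rest. In 13 of them a library lay far from the others. Chance gives about 1 in 20 only for independent, normally distributed values, whereas these sets share libraries between correlated genes. The skin water group, with 3 libraries, was not looked at. The 13 were not spread evenly. IMQ PBS replicate 1 was far above its group for Sprr2b (816 CPM, next 413), Sprr2d (2120 CPM, next 1456), Sprr2e (642 CPM, next 407), Sprr2f (329 CPM, next 248), Sprr2g (385 CPM, next 276) and Sprr2h (942 CPM, next 653). IMQ anti-IL-36R replicate 7 was far above its group for Sprr2b (364 CPM, next 171), Sprr2e (393 CPM, next 161), Sprr2f (206 CPM, next 60.3), Sprr2g (260 CPM, next 105), Sprr2i (380 CPM, next 106) and Sprr2k (12.5 CPM, next 5.57). In colon, water replicate 4 was far above its group for Sprr1a (7.28 CPM, next 1.31).

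Of 12 differences between tissues tested as interactions with edgeR, 7 passed. The IMQ change in skin minus the DSS change in colon was 3.58 for Sprr2b, -4.54 for Sprr2h and 3.03 for Sprr2k on the log2 scale; that of Sprr2h is a description, since colon water held 3 counts of it in all. The anti-IL-36R change in skin minus that in colon was -1.98 for Sprr2b and -2.87 for Sprr2k. The same difference for anti-IL-12p40 was -3.20 for Sprr2b and -3.28 for Sprr2k. Both genes had low colon values, and how much of that of Sprr2b is reads divided with Sprr2a was not tested.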

How the results depend on the processing

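The count of Sprr genes that rose under IMQ was 10 under every alternative run. The count that fell with anti-IL-36R in skin (9) was 0 against PBS replicates 1 to 3 alone and 0 against 4 to 6 alone, and 3 to 10 when 1 library was left out; with anti-IL-12p40 (9) it was 3 against PBS replicates 4 to 6 alone and 9 to 10 with 1 library left out. Against water, anti-IL-36R gave 3 genes, and 8 by DESeq2, 1 by limma-voom, 0 with only those 2 groups and 0 to 8 with 1 library left out; anti-IL-12p40 gave 0, and 2 by DESeq2 and 0 to 1 with 1 library left out. In colon, without a filter on low counts DSS against water gave 7 genes in place of 2, anti-IL-36R against PBS 6 in place of 1 and anti-IL-12p40 against PBS 2 in place of 0, the added genes having 0 counts in water. Anti-IL-36R against PBS in colon gave 0 by limma-voom, 0 with only those 2 groups, 0 without DSS PBS replicates 2, 5 and 6, and 0 to 2 with 1 library left out (0 without DSS PBS replicate 6, 2 without replicate 3); against water it gave 1 in place of 2 with only those 2 groups and 1 to 2 with 1 library left out. The difference between tissues for anti-IL-36R gave 1 to 2 genes with 1 library left out. Of 1734 values of single Sprr genes under alternatives 25 changed sign, 0 of them among those that had passed. Summing all 12 Sprr2 genes in colon gave -0.42 for DSS against water, 0.76 for anti-IL-36R and 0.46 for anti-IL-12p40 against PBS; without the 3 Sprr2a genes, an alternative chosen after seeing the data, the values reversed to 3.52, -2.91 and -2.73. Most of that size came with DSS PBS replicate 6: without it as well they were 1.32 (adjusted p = 0.0037), -0.71 (0.202) and -0.53 (0.705), so that the antibody values did not pass. The cause of these changes was not tested. Low counts limit the colon, at library totals like those of skin: 6 of the 10 genes had 0 counts in water there. No paired analysis was possible because the labels give each library a number of its own and none is shared between groups.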
